A study of Mus musculus with 8 samples.

Results

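The mechanical stress genes of the sarcomere described here are Ankrd1, Ankrd2, Ankrd23, Csrp3, Xirp1, Xirp2 and Flnc, 7 of the 14012 genes counted in quadriceps femoris (QF) muscle of mice that lost the mitochondrial co-chaperone GRPEL1 in muscle fibres. They were chosen by name, for what their products do, but with earlier results of these data known. All 7 were in the table of counts. In the Grpel1 skm-/- libraries Ankrd1, Csrp3 and Flnc rose, Ankrd23 and Xirp2 fell, and Ankrd2 and Xirp1 did not pass the test.

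RNA was sequenced from the QF of 4 Grpel1 skm-/- mice and 4 control mice, 1 library per mouse. All 8 mice carried floxed Grpel1. In the Grpel1 skm-/- mice the HSA-Cre-ERT2 transgene, a Cre recombinase under the human skeletal muscle α-actin promoter, was switched on by tamoxifen (TMX) injections on 5 days from an age of 5 weeks. The promoter acts in the muscle fibres, so Grpel1 stays intact in the other cells of the muscle. The controls were labelled Grpel1 flox/flox. Whether these 4 mice received TMX or carried the Cre transgene is not stated for the libraries. An effect of TMX or of Cre thus cannot be told apart from that of the deletion.

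The sarcomere is anchored at the Z-disc, and its proteins report stretch and damage to the nucleus of the fibre. Ankrd1 (CARP), Ankrd2 (Arpp) and Ankrd23 (DARP) encode the muscle ankyrin repeat proteins (MARPs), which bind the N2A region of titin and also enter the nucleus. Csrp3 encodes muscle LIM protein, a Z-disc adaptor that is found mostly in heart and in slow skeletal fibres. Xirp1 and Xirp2 encode the Xin proteins, which bind and stabilise actin filaments at Z-discs and at the ends of fibres, and Flnc encodes filamin C, the muscle filamin that crosslinks actin at the Z-disc and sarcolemma and is cleared with the help of chaperones when force unfolds it.

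The libraries held between 16017565 and 20361144 counts. The 20 most abundant genes took 36.5 to 40.1% of the counts in control muscle and 19.7 to 23.5% in knockout muscle, so the level of each gene is given in CPM, its count relative to the size of the library, after the sizes were scaled with edgeR's TMM factors to allow for this shift. A gene was called changed at an adjusted p under 0.01 in edgeR's quasi-likelihood test, adjusted by the method of Benjamini and Hochberg over all 14012 genes, and every adjusted p below is from this test. Under TMM scaling 3303 genes were higher and 2962 lower, while scaling by library totals alone gave 8498 higher and 873 lower and moved the log2 fold change of the median gene from 0.065 to 0.73. The count of the whole Grpel1 gene did not check the labels, at 68.4 ± 3.04 CPM in control muscle and 65.3 ± 6.11 CPM in knockout muscle (SD, n = 4 each).

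Of the 7 genes, 5 passed the test, against 44.7% of all genes in the table. In the higher direction 3 of 7 passed, against 23.6% of all genes, and in the lower direction 2 of 7, against 21.1%. The 4 controls and the 4 knockouts did not overlap for 6 of the 7 genes, the exception being Ankrd2, while 53.4% of all genes had groups without overlap. Of these 6, 4 were higher and 2 lower in the knockouts, beside 29% and 24.4% of all genes. With this background the number of genes called is not a result about the set. RNA of whole muscle was measured, so fewer cells of a type and less RNA per cell cannot be told apart. The sizes, the directions and the levels of the single genes are described next.

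**Figure D1:**
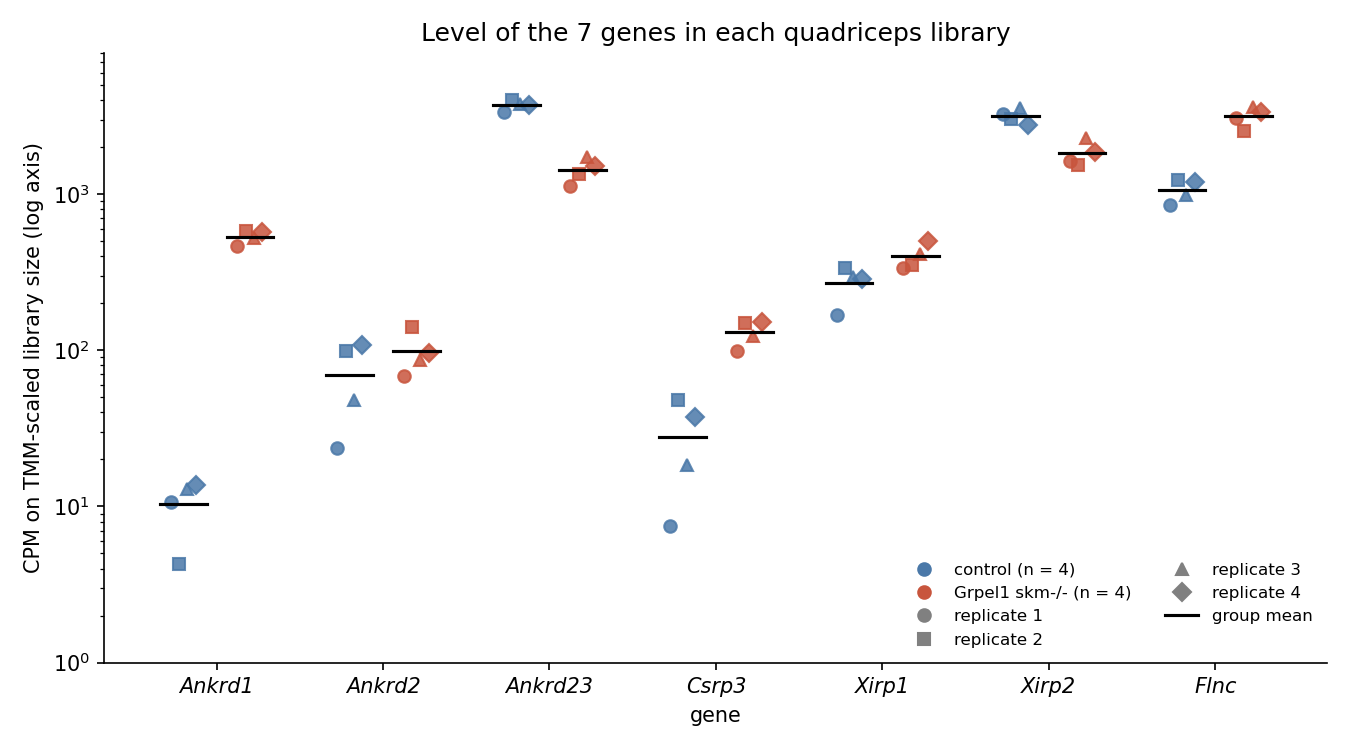
Level of each of the 7 genes in each library, in CPM on TMM-scaled library sizes on a log axis. Points are single mice, shapes mark the replicate number and bars are group means (n = 4 each). Ankrd1 lies between 4.26 and 13.6 CPM in control muscle and between 464 and 581 CPM in knockout muscle, and the groups overlap only for Ankrd2.

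Stretches of promoter are shown for Ankrd1 and Flnc, which rose, and for Xirp2, which fell, because they hold a site of a kind known from muscle genes. They run from 250 bases before the annotated start of transcription to the first 10 bases after it, from RefSeq on GRCm38.p6, and are written 5′ to 3′ on the strand of the gene. Capitals mark the core of the TEAD (M-CAT) site, GGAATG or its reverse complement CATTCC, in Ankrd1 and Flnc, and a MEF2 box in Xirp2.
Ankrd1, chr19:36119835-36120094, minus strand: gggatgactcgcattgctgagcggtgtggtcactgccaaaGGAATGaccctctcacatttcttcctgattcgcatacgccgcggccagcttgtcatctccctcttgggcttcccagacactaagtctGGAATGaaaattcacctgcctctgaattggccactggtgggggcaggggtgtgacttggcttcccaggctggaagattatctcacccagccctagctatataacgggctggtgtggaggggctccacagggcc
Flnc, chr6:29432903-29433162, plus strand: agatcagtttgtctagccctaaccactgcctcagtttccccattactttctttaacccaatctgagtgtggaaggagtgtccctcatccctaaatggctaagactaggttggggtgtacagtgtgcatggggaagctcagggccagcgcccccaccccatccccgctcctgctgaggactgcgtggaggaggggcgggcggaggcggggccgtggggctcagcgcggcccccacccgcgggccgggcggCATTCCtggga
Xirp2, chr2:67445752-67446011, plus strand: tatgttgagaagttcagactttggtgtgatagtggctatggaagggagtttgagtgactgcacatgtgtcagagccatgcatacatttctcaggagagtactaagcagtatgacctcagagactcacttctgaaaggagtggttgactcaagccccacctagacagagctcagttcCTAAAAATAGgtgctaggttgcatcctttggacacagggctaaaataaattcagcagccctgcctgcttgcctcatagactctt
Positions are counted from the start of transcription, the first base upstream being -1. In the window searched, which reached 50 bases past the start, the TEAD core began at -210 and -123 in Ankrd1, at -1 in Flnc and at 37 in Ankrd23. It was thus present in 3 of the 6 genes with a RefSeq window, and in 14.7% of all 32817 windows of the same length. The MEF2 box began at -74 in Xirp2 and was found in 3.19% of windows. Both strands were also searched for an E-box (CANNTG, in 4 of the 6 genes and 72.3% of windows), an AP-1 site (TGANTCA, in Xirp2 alone of the 6 and 7.81% of windows), a composite ATF4 site (TGATGNAA, in none of the 6 and 3.97% of windows) and an SRF CArG box (in none of the 6 and 1.63% of windows). These are matches of letters and not measured sites. One match stood in a gene that rose (Flnc) and another of the same core in a gene that fell (Ankrd23). Xirp1 had no window.

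Ankrd1 showed the largest change of the 7 genes. The gene (Entrez Gene 107765) lies on the minus strand at chr19:36111965-36119844 of GRCm38. Its level was 10.7, 4.26, 13.0 and 13.6 CPM in controls 1 to 4 and 464, 581, 521 and 568 CPM in knockouts 1 to 4. Every knockout was far above every control, and the knockouts differed among themselves by at most 1.25-fold. The means were 10.4 ± 4.27 and 534 ± 52.9 CPM (SD, n = 4 each), a 51.5-fold difference. The log2 fold change was 5.69 (SE 0.31, adjusted p = 5.2e-07), the 52nd highest of the 14012 genes. The raw counts behind it were 132, 65, 181 and 216 in control muscle and 11138 to 14297 in knockout muscle, so the control level rested on few reads in comparison.

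Ankrd2, the MARP that is typical of slow fibres, did not pass the test. The gene (Entrez Gene 56642) lies on the plus strand at chr19:42036038-42045110. Controls 1 to 4 had 23.7, 98.3, 47.7 and 108 CPM, and knockouts 1 to 4 had 68.8, 141, 86.0 and 96.7 CPM. The groups overlapped, with controls 2 and 4 inside the range of the knockouts and controls 1 and 3 below it. The means were 69.4 ± 40.3 and 98.2 ± 30.9 CPM (SD, n = 4 each), with a log2 fold change of 0.50 (SE 0.41, adjusted p = 0.32). The controls differed among themselves by 4.56-fold, more than the group means did.

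Ankrd23 fell. It is the MARP first described as a gene raised in diabetic muscle, and lies on the minus strand at chr1:36530193-36536556 (Entrez Gene 78321). Controls 1 to 4 had 3329, 4016, 3759 and 3733 CPM, and knockouts 1 to 4 had 1127, 1353, 1715 and 1513 CPM. All knockouts were below all controls, and the controls lay within 1.21-fold of each other. The means were 3709 ± 284 and 1427 ± 249 CPM (SD, n = 4 each), so the knockouts held 38.5% of the control level. The log2 fold change was -1.38 (SE 0.14, adjusted p = 1.7e-05). The fall was smaller with library totals alone, at -0.71 (adjusted p = 0.00067).

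Ankrd1 and Ankrd23 thus changed in opposite directions, and the make-up of the family was compared within each library, where scaling has no part. Per kb of exon, Ankrd23 made up 95.9 ± 1.96% of the summed MARP level in control muscle and 60.5 ± 4.33% in knockout muscle (SD, n = 4 each). Ankrd1 went from 0.365 ± 0.154% to 30.6 ± 2.63% and Ankrd2 from 3.74 ± 2.01% to 8.94 ± 2.41%. The shares of each of the 3 genes did not overlap between the groups. The log2 ratio of Ankrd1 to Ankrd23 was 7.19 higher in knockout muscle, that of Ankrd1 to Ankrd2 was 5.11 higher and that of Ankrd2 to Ankrd23 was 2.08 higher. The 8 libraries did not overlap by group for any of these ratios. Each had p = 0.0286 in a two-sided exact permutation test, the smallest value that 4 against 4 libraries can give. After Benjamini-Hochberg adjustment over the 6 ratios tested it was 0.0286 too. For Ankrd1 to Ankrd23 this followed from every knockout being above every control for Ankrd1 and below every control for Ankrd23. For the ratios with Ankrd2, the gap between the groups in Ankrd1 or in Ankrd23 was wider than the values of Ankrd2 could close. The p-values of these ratios thus add no support. The ratio of Ankrd2 to Ankrd23 did not pass without knockout replicate 2, where the difference was 1.87 with p = 0.0571 in the exact permutation test. The summed MARP level per kb was 1637 ± 149 in control muscle and 995 ± 132 in knockout muscle on the TMM scale, but 1302 and 1257 when library totals alone were used.

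**Figure D2:**
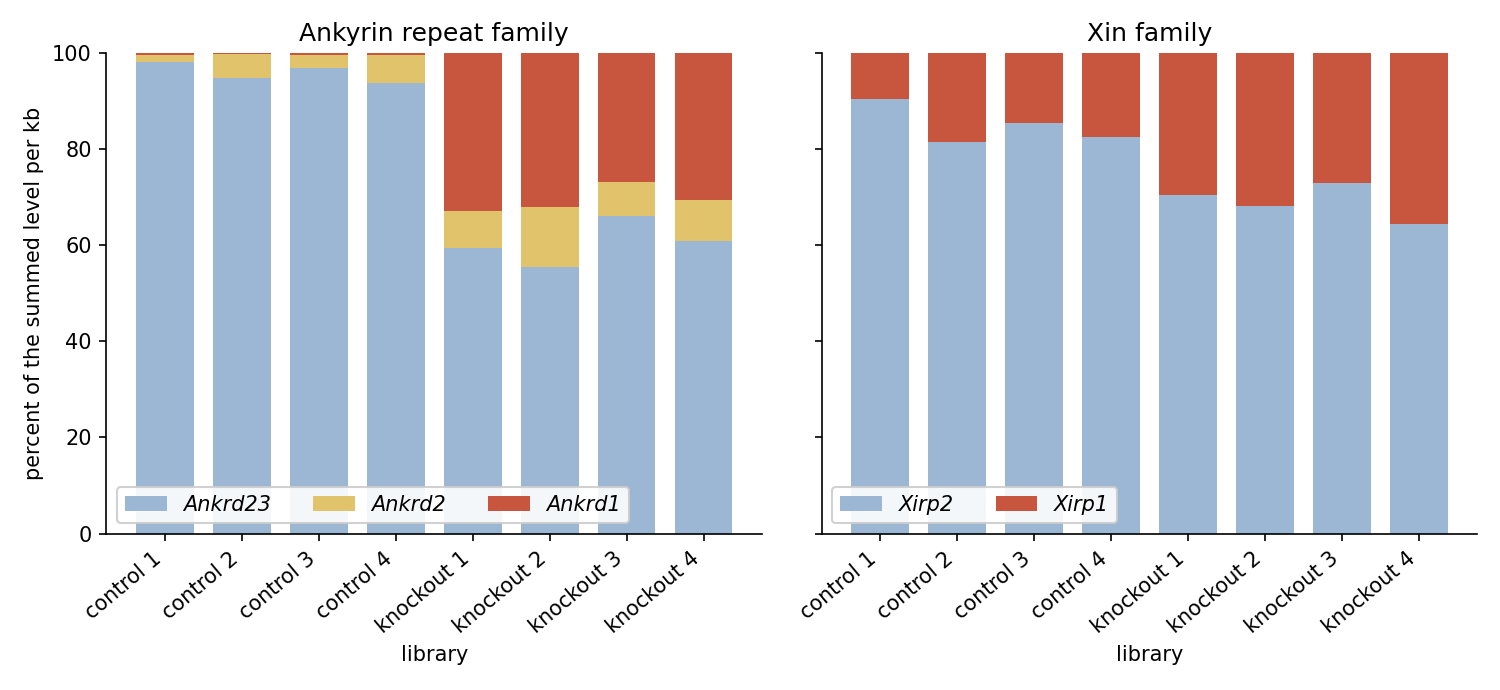
Share of each gene in the summed level per kb of exon, in percent, for the ankyrin repeat family (left) and the Xin family (right). Each bar is 1 library. Ankrd1 is a thin band of 0.365 ± 0.154% in control muscle and 30.6 ± 2.63% in knockout muscle, and Xirp1 holds a larger share in every knockout than in any control.

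Csrp3 rose. The gene of muscle LIM protein (Entrez Gene 13009) lies on the minus strand at chr7:48830398-48848051. Its level was 7.51, 47.9, 18.5 and 37.6 CPM in controls 1 to 4 and 99.4, 150, 124 and 151 CPM in knockouts 1 to 4. All knockouts were above all controls, although the controls differed by 6.38-fold among themselves, the widest spread of the 7 genes. The means were 27.9 ± 18.2 and 131 ± 24.4 CPM (SD, n = 4 each), a 4.67-fold difference, with a log2 fold change of 2.22 (SE 0.44, adjusted p = 0.0016). Csrp1 and Csrp2, its paralogs outside striated muscle, did not pass the test, with log2 fold changes of -0.08 and -0.02 on the TMM scale and 0.59 and 0.65 with library totals alone. Csrp3 made up 53.1 ± 16.1% of the summed level per kb of the 3 CSRP genes in control muscle and 87.0 ± 2.71% in knockout muscle.

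Of the Xin genes Xirp1 did not pass the test and Xirp2 did. Xirp1 (Entrez Gene 22437, minus strand, chr9:120013755-120023598) had 167, 335.3, 296 and 286 CPM in controls 1 to 4 and 335.6, 352, 412 and 500 CPM in knockouts 1 to 4. Every knockout was above every control, but control 2 and knockout 1 were almost level. The means were 271 ± 72.4 and 400 ± 74.3 CPM (SD, n = 4 each), and the log2 fold change of 0.56 (SE 0.20, adjusted p = 0.036) did not pass the threshold of 0.01. It passed with library totals alone, at a log2 fold change of 1.23 (adjusted p = 0.00058).

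Xirp2 fell. It is the longer Xin gene of striated muscle and lies on the plus strand at chr2:67446002-67526606 (Entrez Gene 241431). Controls 1 to 4 had 3270, 3019, 3578 and 2782 CPM, and knockouts 1 to 4 had 1635, 1540, 2277 and 1849 CPM. All knockouts were below all controls, with knockout 3 the nearest to them. The means were 3162 ± 341 and 1825 ± 328 CPM (SD, n = 4 each), 57.7% of the control level, with a log2 fold change of -0.79 (SE 0.14, adjusted p = 0.00081). With library totals alone the value was -0.13 (adjusted p = 0.298). The call of Xirp2 thus rested on the scaling. Within libraries, the log2 ratio of Xirp1 to Xirp2 was 1.39 higher in knockout muscle. Its p of 0.0286 (two-sided exact permutation test, also 0.0286 after adjustment over the 6 ratios) adds no support. It followed from every knockout being above every control for Xirp1 and below every control for Xirp2. Xirp1 went from 15.0 ± 4.04% to 31.1 ± 3.65% of the summed Xin level per kb (SD, n = 4 each). The sum itself was 311 ± 28.6 against 221 ± 35.2 CPM per kb on the TMM scale and 246 against 278 with library totals alone, so its direction turned with the scaling.

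Flnc rose. The gene (Entrez Gene 68794) lies on the plus strand at chr6:29433153-29461888. Its level was 853, 1234, 990 and 1187 CPM in controls 1 to 4 and 3053, 2539, 3622 and 3348 CPM in knockouts 1 to 4. All knockouts were above all controls, and the lowest knockout, knockout 2, was well above the highest control. The means were 1066 ± 177 and 3140 ± 463 CPM (SD, n = 4 each), a 2.95-fold difference, with a log2 fold change of 1.56 (SE 0.15, adjusted p = 1.5e-05). Flna, a filamin of most cell types, did not pass the test, with a log2 fold change of -0.48 (adjusted p = 0.036) on the TMM scale and 0.19 with library totals alone. The log2 ratio of Flnc to Flna was 2.03 higher in knockout muscle (p = 0.0286, two-sided exact permutation test, 0.0286 after adjustment over the 6 ratios). The gap between the groups in Flnc was wider than the values of Flna could close, so this p-value adds no support.

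Levels of different genes were compared per kb of exon, as CPM divided by the exon length in the deposited table. In the controls Ankrd23 stood first at 1568 ± 120 CPM per kb, followed by Xirp2 at 264 ± 28.5, with no overlap between them (SD, n = 4 each). Flnc (116 ± 19.3), Ankrd2 (63.1 ± 36.7), Xirp1 (46.4 ± 12.4) and Csrp3 (28.7 ± 18.7) came next, and each overlapped its neighbour in this order. Ankrd1 was last at 5.88 ± 2.42 CPM per kb, just below the range of Csrp3. In the knockouts Ankrd23 was still first at 604 ± 105 CPM per kb, while Flnc (343 ± 50.5) and Ankrd1 (302 ± 29.9) came next and overlapped each other. They lay above Xirp2 (152 ± 27.4), Csrp3 (135 ± 25.1), Ankrd2 (89.2 ± 28.1) and Xirp1 (68.5 ± 12.7), of which each overlapped the next. Among all 14012 genes, ordered by mean level per kb, Ankrd1 went from place 6044 to place 170, whereas Ankrd23 went from place 37 to place 63.

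**Figure D3:**
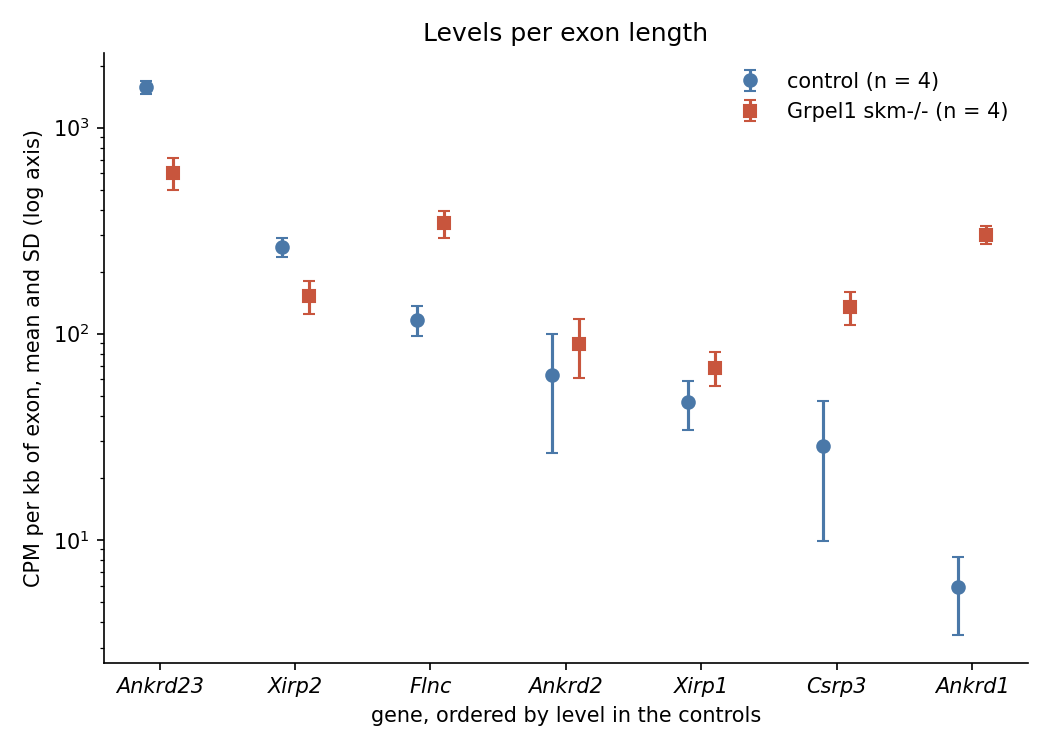
Level of the 7 genes in CPM per kb of exon on a log axis, as mean and SD of 4 libraries per group, ordered by the level in the controls. Ankrd1 is last of the 7 in the controls, at 5.88 ± 2.42, and level with Flnc in knockout muscle, at 302 ± 29.9 against 343 ± 50.5.

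The controls did not vary alike for all 7 genes. For Ankrd2 and Csrp3 controls 1 and 3 were below controls 2 and 4, and the lower of controls 2 and 4 was 2.06 times (Ankrd2) and 2.03 times (Csrp3) the higher of controls 1 and 3. Genes chosen after their values were seen had the same order with a like gap, among them Lmod2, a regulator of thin filament length (2.04 times), Myoz2, a calsarcin of slow fibres (2.02 times), and Myh2, the myosin of type IIa fibres (1.79 times). The slow fibre genes had no common order in the controls. Tnnc1, Tnni1 and Myh7 had the opposite order, with Myh7 at 16.7, 3.27, 39.9 and 5.42 CPM in controls 1 to 4. The slow fibre genes Myl2, Myl3, Tnnt1, Tpm3 and Atp2a2 had neither order. These too were named after their values were seen. Of the 7777 genes with a mean of at least 10 CPM in the controls, 13.6% had controls 1 and 3 below controls 2 and 4, and 0.296% by at least 1.5 times. Flnc followed this order by 1.20 times, and Xirp1 and Ankrd1 did not follow it. These are descriptions of 4 libraries, and no test was made.

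**Figure D4:**
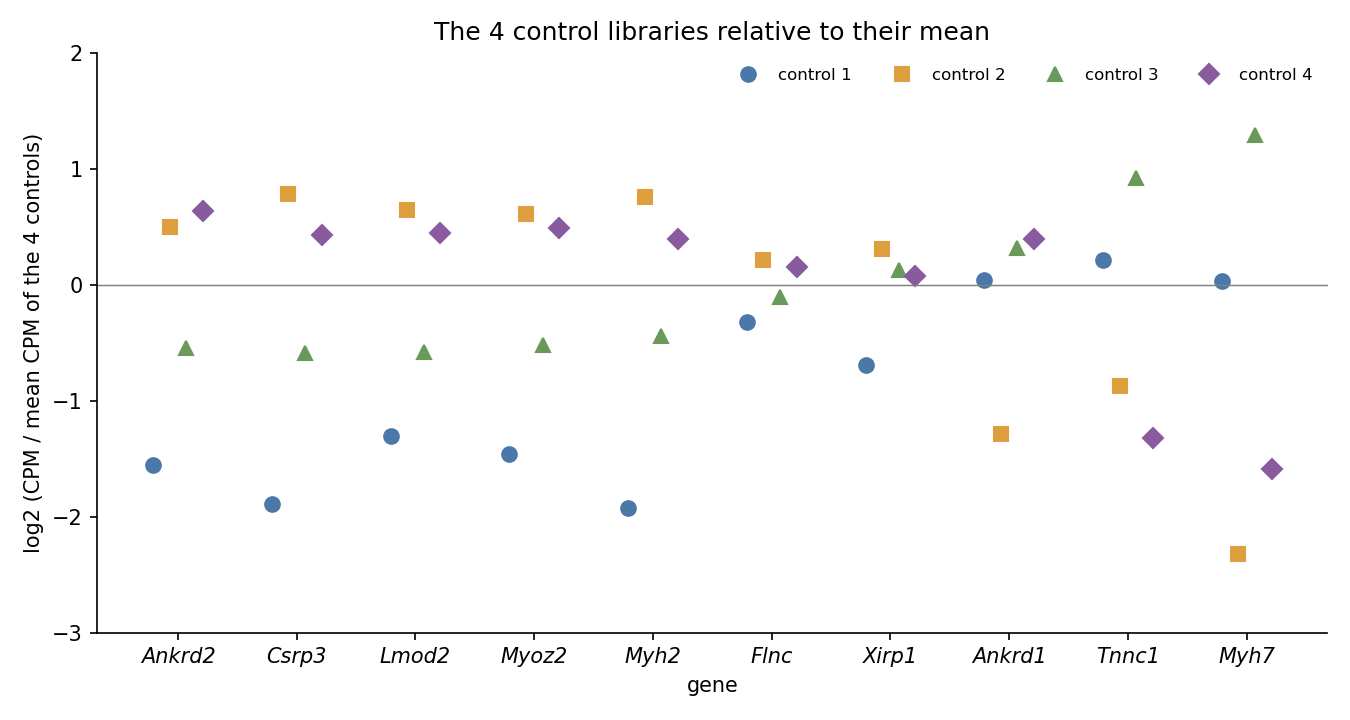
Level of 10 genes in each control library relative to the mean of the 4 controls, on the log2 scale, with a shape and colour for each library. Controls 1 and 3 lie below controls 2 and 4 for Ankrd2, Csrp3, Lmod2, Myoz2, Myh2 and Flnc, and above them for Tnnc1 and Myh7.

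For each gene the 3 genes of most like pattern were sought among the 8472 genes with a mean of at least 10 CPM in the higher group, by the root mean square difference of log2 CPM over the 8 libraries, each gene taken relative to its control mean. A small value means a like pattern, in which a like difference between the groups counts heavily. Ankrd1 was nearest to Mthfd2, an enzyme of mitochondrial one-carbon metabolism (difference 0.56), Slc7a5, an amino acid transporter (0.65), and Arhgap33 (0.66). Mthfd2 was at 5.06 ± 1.20 CPM in control muscle and 256 ± 53.5 CPM in knockout muscle. Slc7a5 (1.85 ± 0.351 CPM) and Arhgap33 (0.999 ± 0.197 CPM) were also under 10 CPM in control muscle. These 3 genes thus met the limit of 10 CPM only through the knockouts. Ankrd2 was nearest to Myh2 (0.29), the noncoding RNA Rian (0.31) and Smtnl1 (0.34). Csrp3 was nearest to Lmod2 (0.37), Pnmal2 (0.40) and Esrrg, a nuclear receptor of oxidative metabolism (0.45). Pnmal2 also met the limit of 10 CPM only through the knockouts (1.57 ± 0.840 CPM in control muscle, 10.5 ± 3.79 CPM in knockout muscle).

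The 4 other genes had much closer neighbours. Ankrd23 was nearest to Ston2 (0.098), to Synpo2, a Z-disc partner of filamin (0.15), and to the phosphatase Dusp1 (0.15). Xirp1 was nearest to Prepl (0.087), Rap1gap2 (0.13) and Sipa1l2 (0.16). Xirp2 was nearest to Txlnb (0.060), to Srl, a calcium-binding protein of the sarcoplasmic reticulum (0.082), and to Scrn3 (0.085). Flnc was nearest to Slc41a1, a magnesium transporter (0.091), Sox4 (0.099) and Agap1 (0.12). Sox4 met the limit of 10 CPM only through the knockouts (3.71 ± 0.548 CPM in control muscle, 10.9 ± 1.60 CPM in knockout muscle). No test was made of these values.

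The partners of the 7 proteins were counted next, as lists drawn up by function with earlier results of these data known. Their counts stand beside the 23.6% of all genes that were higher and the 21.1% that were lower on the TMM scale, and beside 60.6% and 6.23% with library totals alone, so a rise in the number of higher genes of a list with library totals came with a rise over all genes. Titin and its N2A and I-band partners, which hold the MARPs, had 2 of 12 genes higher and 7 lower, and the median of the log2 fold changes was -0.52 beside 0.065 for all genes. Capn3, the muscle calpain that binds the same region of titin, fell by 1.64 on the log2 scale (adjusted p = 3.0e-07), and so did Smyd2, a methyltransferase of the I-band (fell by 1.5 on this scale, adjusted p = 0.00086), and Trim55, a titin-binding ubiquitin ligase (-1.14, adjusted p = 2.8e-06). Fhl2, a LIM protein that binds titin, rose from 0.806 ± 0.227 to 2.6 ± 0.472 CPM (log2 fold change 1.67, adjusted p = 0.00023). Titin itself, Ttn, fell as Ankrd23 and Xirp2 did, by 1.10 on the log2 scale (adjusted p = 9.3e-05). The count of 2 higher became 1 without control replicate 1 or 2 or without knockout replicate 2, 3 or 4, and with library totals alone 5 genes were higher and 4 lower, Smyd2 no longer among them.

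Among the Z-disc partners of muscle LIM protein 2 of 14 genes were higher and 8 lower, and the median of the log2 fold changes was -0.77. Csrp3 and Myoz2 rose, while the fast-fibre calsarcins Myoz3 and Myoz1 and the fast α-actinin Actn3 fell. The other α-actinin of the list, Actn2, named after its values were seen, rose (log2 fold change 1.10, adjusted p = 0.00019). Myoz2 went from 22.4 ± 12.6 to 204 ± 59.8 CPM (log2 fold change 3.18, adjusted p = 9.1e-05). Scaled by library totals alone, 4 of the 14 were higher and 6 lower. Myoz3 fell by 2.72, Actn3 fell by 2.33 and Myoz1 fell by 1.74 on the log2 scale, with adjusted p-values of 3.8e-07, 1.3e-06 and 4.0e-06.

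Among the filamin C partners 2 of 14 genes were higher and 6 lower, and the median was -0.26, while Flnc itself rose. The count of 2 became 1 without any single library other than control replicate 4 and knockout replicate 3, and with library totals alone 8 were higher and 3 lower. Synpo2 fell by 1.28 and Myot, the gene of myotilin, by 1.02 on the log2 scale. Fbxl22, a ubiquitin ligase subunit of the Z-disc, rose by 1.11 (adjusted p = 0.00046). Myot did not pass with library totals alone (-0.35, adjusted p = 0.022). Of the 12 genes of chaperone-assisted filamin autophagy 2 were higher and 5 lower. Hspb7, a small heat shock protein that binds filamin C, went from 147 ± 67.4 to 1016 ± 123 CPM (log2 fold change 2.79, adjusted p = 2.5e-05). Bag3, the co-chaperone of this route, did not pass the test (log2 fold change -0.21, adjusted p = 0.067), but was higher with library totals alone (0.46, adjusted p = 0.00056), as were 8 of the 12 genes, with 3 lower. Hspa1a and Hspa1b fell by 3.36 and 2.62 on the log2 scale, but they are near-identical copies that share reads, so their single values are uncertain. Of the 12 actin and junction partners of the Xin proteins 4 were higher and 5 lower. The cadherin gene Cdh2 rose from 1.25 ± 0.297 to 5.07 ± 1.71 CPM and Enah, an actin assembly factor, from 53.5 ± 6.85 to 123 ± 20.4 CPM, whereas the sarcomeric actins Acta1 and Actc1 fell by 1.53 and 1.47. Scaled by library totals alone, 7 of these genes were higher and 1 lower, and Actc1 did not pass.

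Ankrd1 is a known target of YAP and TEAD, and Csrp3 and Ankrd1 are among the genes linked with SRF and MEF2 in muscle. Of the 17 genes of YAP, TAZ, TEAD and their targets 6 were higher and 3 lower, beside 23.6% and 21.1% of all genes. The median of the log2 fold changes was 0.30. Amotl2 rose by 1.09, Tead4 by 0.94 and Vgll2 by 0.82, and Tead1, the main TEAD of muscle, fell by 0.83. The targets Cyr61 and Ctgf, named after their values were seen, did not pass the test, with log2 fold changes of 0.72 (adjusted p = 0.035) and -1.44 (adjusted p = 0.026). With library totals alone 10 of the 17 were higher, beside 60.6% of all genes, among them Cyr61 at 1.37, and Tead1 did not pass at -0.16. The count of 6 fell to 3 without knockout replicate 2 and to 2 without knockout replicate 3 or 4. Of the 18 genes of SRF, MRTF and MEF2 3 were higher and 9 lower, with a median of -0.27. Egr1 rose by 1.92, Fhl2 by 1.67 and Junb by 1.52, while Acta1 fell by 1.53 and Srf by 1.01. When library totals alone were used, 10 of the 18 were higher and 1 lower, and Srf did not pass (-0.33, adjusted p = 0.015).

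The lists of denervation and fibre type moved further. Of 12 denervation markers 11 were higher and 1 lower, beside 23.6% and 21.1% of all genes. The median of the log2 fold changes was 3.36. The embryonic and perinatal myosins Myh3 and Myh8 rose by 6.92 and 6.72. Chrng, the fetal subunit of the acetylcholine receptor, had 1, 5, 3 and 0 counts in controls 1 to 4 and at least 545 counts in each knockout. Dach2 was lower, with 0, 2, 2 and 2 counts in knockouts 1 to 4. Of 9 slow fibre genes 7 were higher (median 3.18), and Myh7 (3.93, adjusted p = 0.012) and Myl3 (0.21, adjusted p = 0.83) did not pass. Of 10 fast fibre genes 1 was higher and 8 lower (median -1.35). The higher one was the fast fibre myosin Myh1, named after its values were seen. Its level went from 7246 ± 2162 to 16074 ± 3194 CPM (log2 fold change 1.15, adjusted p = 0.0017). Tnni1, Tnnc1 and Tnnt1, the slow troponins, rose by 5.06, 4.67 and 3.68, and Myh4, the myosin of type IIb fibres, fell by 2.34, with Pvalb falling by 2.30 and Tnnc2 by 1.49. Ankrd1, at 5.69, lay between the slow troponins and the developmental myosins in size, Csrp3 below both, and Ankrd2, the slow-fibre MARP, did not pass the test. With library totals alone the denervation, slow and fast lists had 11, 8 and 1 genes higher, and the denervation and fast lists had 1 and 8 lower.

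**Figure D5:**
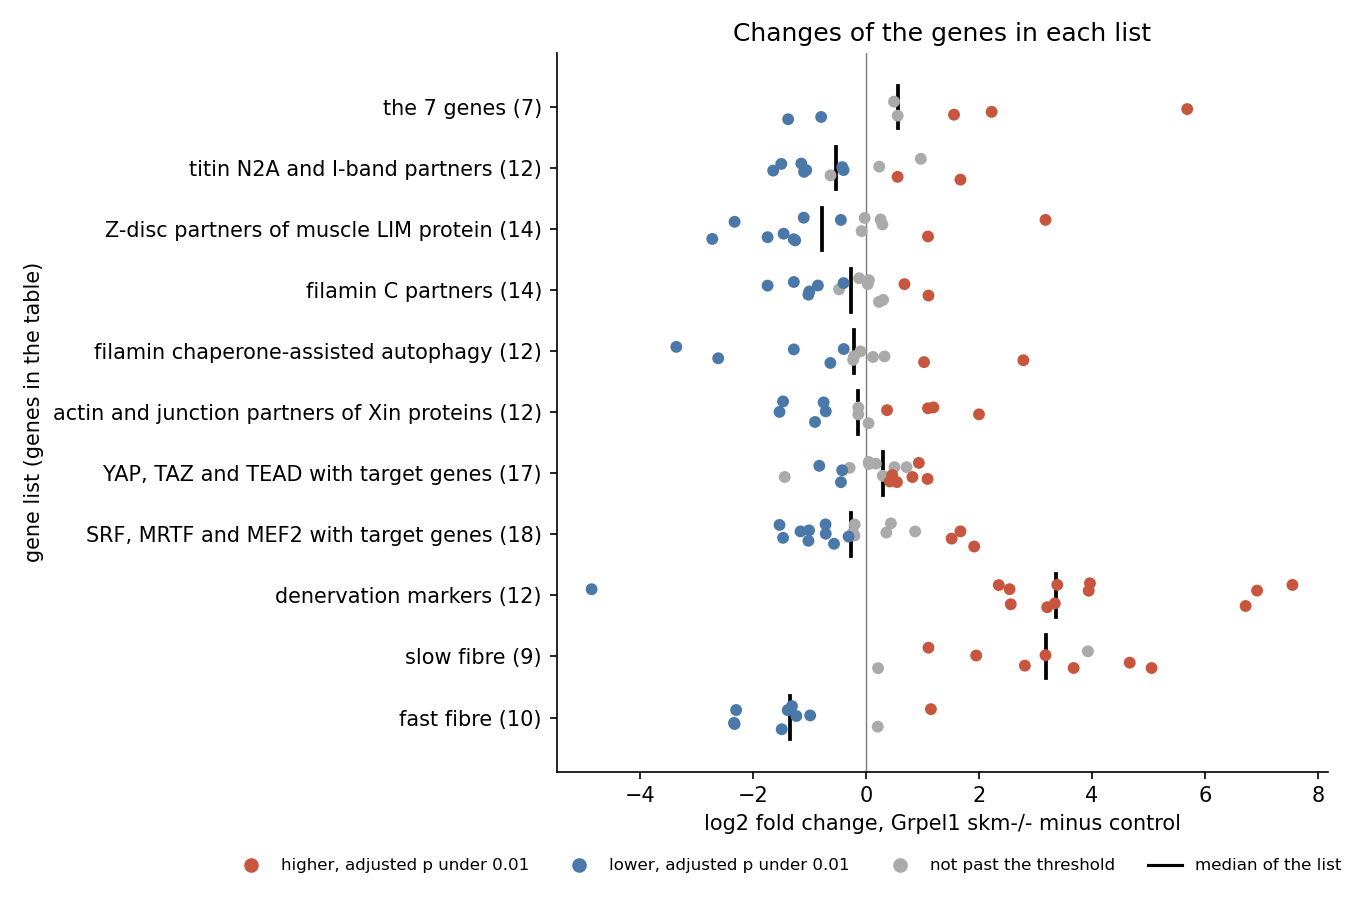
The log2 fold change (Grpel1 skm-/- minus control) of each gene in 11 groups, with colour for the call at an adjusted p under 0.01 in edgeR's test, a bar for the median and vertical scatter for legibility only. The 7 genes run from -1.38 (Ankrd23) to 5.69 (Ankrd1), and the denervation and slow fibre lists lie furthest to the right.

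Markers of other cell types were summed per library on the TMM scale. The summed level of the 8 markers of muscle fibres was 212607 to 272028 CPM in control muscle. In knockout muscle the sum was 68502 to 98586 CPM, in the direction of Ankrd23 and Xirp2. Of these markers 7 were lower and 1, Myh1, was higher. Myh4 was the largest part of the sum, at 103899 ± 16665 CPM in control muscle and 20582 ± 4678 CPM in knockout muscle. The 6 fibroblast markers summed to 1369 to 1899 CPM in control muscle and 559 to 818 CPM in knockout muscle, and the 6 endothelial markers to 283 to 398 and 196 to 222 CPM. The 5 satellite cell markers went in the direction of Ankrd1, Csrp3 and Flnc, from 32.9 to 36.4 CPM in the controls to 45.0 to 64.9 CPM in knockout muscle, with 3 higher and 1 lower. The 6 macrophage markers (54.4 to 138 CPM in the controls, 115 to 209 CPM in knockout muscle) and the 6 adipocyte markers (248 to 1459 and 685 to 2481 CPM) overlapped between the groups, as did the 7 of smooth muscle and pericytes (436 to 691 and 389 to 441 CPM) and the 5 of Schwann cells (40.5 to 134 and 65.8 to 108 CPM). The Xin proteins lie at the junction of fibre and tendon, and the 5 tendon markers summed to 57.7 to 363 CPM in control muscle and 31.4 to 43.1 CPM in knockout muscle. Ankrd1 and Csrp3 are also heart genes, and of the heart markers 4 of 8 were measured here, summing to 1295 to 3967 CPM in the controls, mostly Actc1, and 886 to 1418 CPM in knockout muscle. Myl4, which is also a gene of fetal muscle, rose by 5.73 on the log2 scale, and the defining heart markers Myh6 (3.15 and 1.67 CPM as group means) and Tnni3 (0.199 and 0.577 CPM) were low in both groups. Scaled by library totals, an alternative added after the data were seen, the sums of the fibre markers (179347 to 203327 CPM in control muscle, 89156 to 117295 CPM in knockout muscle) and of the satellite cell markers (26.7 to 30.2 and 53.5 to 86.3 CPM) still differed without overlap. Those of the endothelial (219 to 336 and 233 to 280 CPM), fibroblast (1058 to 1602 and 686 to 1087 CPM) and tendon markers (44.6 to 272 and 38.6 to 56.0 CPM) then overlapped between the groups, and the macrophage sums did not (40.7 to 106 and 142 to 278 CPM), so these 4 rested on the scaling. The part of these cell types in the changes of the 7 genes was not tested.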

How the data were processed

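RNA of QF muscle from 4 knockout and 4 control mice was analysed. For the deposited counts the authors demultiplexed reads (bcl2fastq 2.20.0.422), trimmed them (cutadapt), mapped them to GRCm38 (STAR 2.5.4b) and counted pairs on exons (Rsubread). They dropped duplicate, chimeric and multimapping reads, and any gene below 50 reads. Counting of unique reads can lower the values of genes with near-identical copies. The annotation release and the strand setting are not given in the sources used here. Exon lengths are those the authors deposited. The authors' 8 FPKM columns, and their fold changes and p-values, were not used.

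All 14012 genes were tested with edgeR 4.0.16 (glmQLFit and glmQLFTest, TMM, R 4.3.3). Values are means and SDs of CPM on TMM-scaled library sizes, and log2 CPM for ratios and patterns had a prior count of 2. Ratios of paralogs were tested two-sided by exact permutation, with 70 ways to assign the libraries. The adjustment covered 6 ratios, of which 1 is not reported here. The replicates were separate animals, and no pair of libraries agreed within sampling noise.

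The 7 genes and all lists were chosen with earlier results of these data known. Named genes are the 7, up to 4 per list that passed the threshold without overlap between groups and had the largest absolute log2 fold changes, and 3 of most like pattern per member. Others are said to be chosen after their values were seen, except Ttn, Srf, Bag3, Csrp1, Csrp2 and Flna, which were taken from the lists as partners or paralogs, Myh7 and Myl3 as the slow fibre genes not past the threshold, and the heart markers Myl4, Myh6 and Tnni3. Alternatives were RLE and upper-quartile factors, library totals alone, scaling without the 20 most abundant genes, filterByExpr, DESeq2 1.42.0, a threshold of 0.05, the replicate number as a block, a prior count of 0.5 and each library left out. The procedure was tested on simulated data.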

Additional observations from a re-analysis of the deposited data

How the results depend on the processing

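With library totals alone in place of TMM factors 8498 genes were higher and 873 lower, 1 of the 7 genes was lower in place of 2, Xirp1 passed with a log2 fold change of 1.23 (adjusted p = 0.00058) and Xirp2 did not pass at -0.13 (adjusted p = 0.298). The other log2 fold changes with library totals alone were 6.36 for Ankrd1, 1.15 for Ankrd2, -0.71 for Ankrd23, 2.88 for Csrp3 and 2.21 for Flnc. Xirp1 passed at an adjusted p under 0.05, with its value of 0.56, and with the replicate number as a block (0.59, adjusted p = 0.0097). Samples with the same number correlated in their deviations from the group means at 0.118, 0.00314, 0.42 and 0.138 for numbers 1 to 4, and not every sample correlated best with its own number, so they were not taken as pairs. The block changed no other call of the 7 genes, and Ankrd2 had 0.67 (adjusted p = 0.039). The cause of these changes was not tested.

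With each library left out in turn, 2596 to 3005 genes were higher and 2600 to 2937 lower, and the log2 fold changes lay between 5.42 and 5.85 for Ankrd1, 0.21 and 0.79 for Ankrd2, -1.51 and -1.29 for Ankrd23, 1.92 and 2.62 for Csrp3, 0.39 and 0.68 for Xirp1, -0.95 and -0.73 for Xirp2 and 1.45 and 1.64 for Flnc. The 5 genes past the threshold passed each time. The ratio of Ankrd2 to Ankrd23 had differences of 1.69 to 2.37 and did not pass without knockout replicate 2. None of the results listed changed direction. Counts of 65 to 216 limit the precision of the control level of Ankrd1.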

Other observations

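Among the knockouts, Ankrd2 and Csrp3, which are known as genes of slow fibres, did not have the order of the slow fibre genes Myh7 and Tnnc1. Knockout 2 had the highest level of Ankrd2 (141 CPM) and was level with knockout 4 for Csrp3 (150 and 151 CPM), whereas it had the lowest level of the slow myosin Myh7, at 6.18 CPM against 172.5, 280 and 528 CPM in knockouts 1, 3 and 4, and of the slow troponin Tnnc1, at 26.1 CPM against 49.3, 84.8 and 138 CPM. Knockout 2 was also the lowest for the slow fibre genes Myl2, Myl3, Tnnt1, Tpm3, Atp2a2 and, narrowly, Myoz2. Among the listed slow fibre genes only Tnni1, the slow troponin I, differed. Tnni1 had 43.7, 76.2, 50.9 and 123 CPM in knockouts 1 to 4, which is the order of Csrp3 (99.4, 150, 124 and 151 CPM). These slow fibre genes were chosen after their values were seen, and no test was made over 4 libraries.

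The mice of a group did not vary alike for the 7 genes. The coefficient of variation was lower in the knockouts for Ankrd1 (41.2% in the controls, 9.91% in the knockouts), Csrp3 (65.4% and 18.6%), Ankrd2 (58.1% and 31.5%), Xirp1 (26.7% and 18.6%) and, slightly, Flnc (16.6% and 14.8%). For Ankrd23 (7.65% and 17.4%) and Xirp2 (10.8% and 18.0%) it was higher in the knockouts. These are values of 4 libraries per group, and no test was made.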
